A study of Homo sapiens with 8 samples.

Results

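Lysosomal enzymes and membrane proteins were followed through 46 listed genes, found by symbol among the 60483 gene identifiers of the count tables. The list holds 7 cathepsins, 11 glycosidases, 7 lipid enzymes and lipid carriers, 7 sulfatases and phosphatases, 2 other luminal proteins, 10 membrane proteins, and the 2 regulators TFEB and TFE3. All 46 genes were found, and 44 had enough counts to be tested. SGSH, the heparan sulfate sulfamidase, had 0 counts in all 8 libraries. ACP5, the tartrate-resistant acid phosphatase of osteoclasts, had 1 count in 1 F158E library and none elsewhere. A count of 0 allows up to 3 counts, or 0.137 to 0.179 CPM over the libraries (counting error only), and such a 0 is no proof of silence: XBP1, a widely expressed stress regulator, had none in any library either.

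The RNA came from NB4, an established cell line of acute promyelocytic leukemia that carries PML/RARα, a fusion protein joining PML of nuclear bodies to the retinoic acid receptor α. In every library, the control included, lentivirus had been used for 72 h to knock down the endogenous fusion, so no group holds unmodified cells. In its place the cells received an empty vector (EV), HA-tagged full-length PML/RARα (PR), or 1 of 2 HA-tagged mutants, F158E and ΔIDR, which the submitters describe as incompetent for phase separation. Each of these 4 groups had 2 libraries of total RNA depleted of ribosomal RNA, and the comparisons ask what the full-length fusion changes and what each mutant leaves of that change.

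Gene counts summed to between 16779364 and 21965389 per library. Levels are given in CPM, counts scaled to library size with TMM factors. Gene positions are from GENCODE 29 on GRCh38 and span the whole gene, exons and introns. Differences are log2 fold changes ± SE from edgeR with 2 libraries in each group, and a gene is called at an adjusted p under 0.05. Whether both libraries of a group are separate cultures is not stated, so p-values here reflect library-to-library spread alone, possibly technical. That spread is largely shared over genes (78.3 prior against 4 residual degrees of freedom). A very small p-value therefore rests little on the spread of that gene's own libraries. In bulk RNA, fewer cells of a type and less RNA per cell cannot be told apart. The promyelocyte marker MPO stood at 3437 to 4170 CPM in the 8 libraries, while ELANE, another gene of that stage, did not exceed 0.121 CPM. Reads over the fusion partners differed strongly between groups. RARA averaged 23.1 CPM with EV, 77 with PR, 32.3 with F158E and 1358 with ΔIDR, and PML averaged 51.9, 124, 65.9 and 442 CPM. These counts cannot separate endogenous from introduced transcripts, so the sequence of a construct and its level cannot be told apart in any comparison below.

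Lysosomes degrade protein, sugar chains, lipids and nucleic acids with acid hydrolases, most of which are delivered from the Golgi by mannose 6-phosphate receptors. Membrane proteins such as LAMP1 and LAMP2 line the organelle, and a proton pump keeps it acidic. Many of its genes are targets of TFEB and TFE3, related transcription factors that move to the nucleus when the kinase complex mTORC1 is inactive and that bind a palindrome called the CLEAR element. Maturing myeloid cells use lysosomes for phagocytosis, and their azurophil granules are lysosome-related organelles.

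The promoter stretches below are shown because they hold the letters of that element, or only of a shorter core of it, in genes of the list. Sequences are from RefSeq (GRCh38.p14), in windows of 250 bases before to 50 after each start, and 36 of the 46 genes matched. Each stretch lies before the gene's RefSeq start, which can differ from the GENCODE start (the end of the GAA stretch lies inside the GENCODE gene), and is printed 5′ to 3′ on the gene's strand. Capitals mark the CLEAR palindrome (GTCAC followed at once by its reverse complement GTGAC), its shorter form TCACGTGA or the E-box CACGTG, the longest that matches at each place.
GAA: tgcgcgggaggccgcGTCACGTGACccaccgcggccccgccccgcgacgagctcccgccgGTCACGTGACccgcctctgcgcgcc
MCOLN1: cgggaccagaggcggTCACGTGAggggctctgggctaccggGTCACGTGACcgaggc
LAMP1: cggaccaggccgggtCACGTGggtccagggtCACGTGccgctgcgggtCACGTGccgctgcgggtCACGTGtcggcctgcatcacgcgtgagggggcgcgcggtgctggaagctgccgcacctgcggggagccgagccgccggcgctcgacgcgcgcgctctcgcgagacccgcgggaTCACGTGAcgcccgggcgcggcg
NEU1: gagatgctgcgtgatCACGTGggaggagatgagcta
The stretches lie at chr17:80101488-80101572 (plus strand) for GAA, chr19:7522567-7522623 (plus strand) for MCOLN1, chr13:113297032-113297232 (plus strand) for LAMP1 and chr6:31862927-31862962 (minus strand) for NEU1. GAA carried the 10-base palindrome at 78 and at 33 bases before its start (first base of each), and LAMP1 had 4 E-boxes and 1 shorter form. All 3 motifs read the same on both strands, and each longer one contains the shorter ones. CACGTG occurred in the windows of 11 of the 36 matched genes (30.6%) and in those of 8.77% of all 27305 genes in the table. TCACGTGA occurred in 6 of the 36 (16.7%, against 1.18% of all), and the 10-base palindrome in 3, namely GAA, GALNS and MCOLN1 (8.33%, against 0.421%). A gene can have several windows, which raises its share when counted by gene. Counted by window, CACGTG was in 21.8% of the 55 windows of matched genes and in 7.26% of all 35116. The shares were 12.7% and 0.98% for TCACGTGA, and 5.45% and 0.353% for the 10-base palindrome. A match describes letters and no binding was measured here.

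LAPTM5, a lysosomal membrane protein of blood cells, was the most abundant gene of the list per length. Averaged over the 8 libraries and divided by exon length, it stood at 161 CPM per kilobase, followed by PSAP at 126, LAMP1 at 65.3, LAMP2 at 52.1 and PPT1 at 47.3. At the other end TFEB stood at 0.107 and FUCA1 at 0.319 CPM per kilobase. Summed over all 46 genes, the level was 3837 and 3798 CPM with EV, 3453 and 3480 with PR, 3406 and 3409 with F158E, and 4397 and 4297 with ΔIDR. Both ΔIDR libraries thus lay above, and both PR and both F158E libraries below, both EV libraries. Relative to the EV mean the sums were 0.908 with PR, 0.893 with F158E and 1.14 with ΔIDR, and as plain shares of all gene counts the ratios were 0.922, 0.895 and 1.13. Without LAPTM5 and PSAP, the most abundant pair, the sums were 2879 and 2826, 2740 and 2780, 2652 and 2666, and 3049 and 2991 CPM in the same order of groups. The order of groups and the separation of ΔIDR from EV remained without that pair. The gap of each other group from EV was smaller without it, so much of the size of these differences came from LAPTM5 and PSAP.

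**Figure D1:**
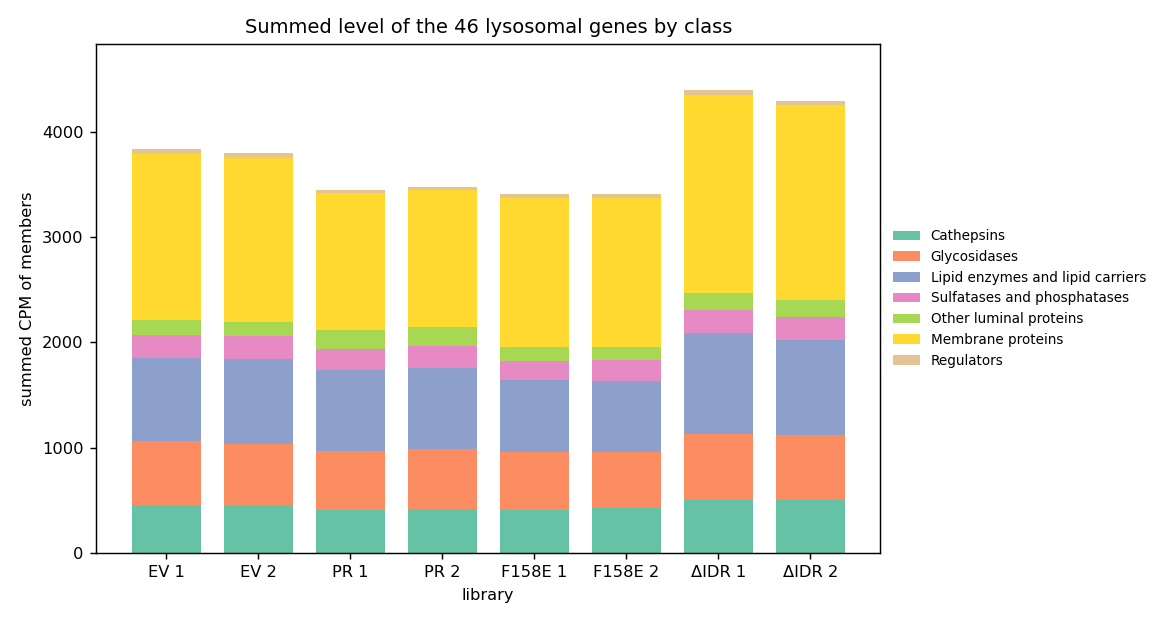
Summed level in CPM (vertical axis) of the 46 lysosomal genes in each of the 8 libraries (horizontal axis), stacked by class. The ΔIDR libraries reach 4397 and 4297 CPM, against 3837 and 3798 with EV, and membrane proteins form the largest block in every library.

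Lysosomal genes differed in both directions between full-length PML/RARα and the empty vector. Of the 44 tested, 11 were higher and 17 lower with PR than with EV, where 24.2% of all 13982 tested genes were called higher and 24.4% lower (48.6% either way). The median log2 change over the 44 was -0.11, against 0.00 over all tested genes, and no called member changed by as much as 2-fold. Calls kept under all 14 alternative settings (other software, filters and scalings, and each library left out in turn) numbered 5 of the 11 and 11 of the 17. Where a call whose value is given below was lost on leaving out a library, that library and the adjusted p without it are given.

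Between F158E and PR, 9 of the 44 were higher and 15 lower (22.2% and 21.8% of all genes, 43.9% either way). Between ΔIDR and PR, 22 were higher and 9 lower (24.9% and 24.9% of all genes, 49.9% either way), and the medians were -0.06 with F158E and 0.19 with ΔIDR. Both mutants share their PR libraries here, so these counts are not independent. Against EV, F158E had 1 higher (CTSH) and 11 lower (3.98% and 4.67% of all genes, 8.65% either way, with a median of -0.17 over the 44). Against EV, ΔIDR had 7 higher and 3 lower (CTSB, CTSH and GRN), where 5.06% and 5.23% of all genes were called (10.3% either way), with a median of 0.11. The ΔIDR call of CTSB against EV (-0.20 ± 0.06, adjusted p = 0.0258) was lost without EV replicate 1 (0.196), EV replicate 2 (0.145) or ΔIDR replicate 2 (0.402), and with DESeq2 (0.0679), and that of GRN (-0.30 ± 0.07, adjusted p = 0.000622) was lost without EV replicate 1 (0.145) or ΔIDR replicate 2 (0.0519). The mutants were also compared directly: 23 of the 44 were higher and 1 (CTSH) was lower with ΔIDR than with F158E, where 9.17% and 9.37% of all genes were called (18.5% either way) and the median over all genes was -0.01. The median over the 44 was 0.25. Of those 23 calls 11 were kept in every alternative, and leaving out ΔIDR replicate 1 brought the 23 down to 15. Leaving out 1 library also moved other counts by over 1.5 times. The 11 higher in PR became 6 without EV replicate 2, and the 11 lower in F158E against EV became 6 without EV replicate 1, EV replicate 2 or F158E replicate 1. The 3 lower in ΔIDR against EV became 1 without EV replicate 1 or ΔIDR replicate 2.

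Cathepsins, the lysosomal proteases, fell or did not pass the test with PR. Of 7, 4 were lower than with EV and none was higher (24.4% and 24.2% of all tested genes). With ΔIDR against F158E, 5 were higher and 1 was lower (9.17% and 9.37% of all tested genes). CTSD, the main aspartic protease of lysosomes (chr11:1752752-1764573, minus strand), stood at 74 and 61.8 CPM with EV, 67.7 and 64.5 with PR, 50.6 and 48.2 with F158E, and 116 and 116 with ΔIDR. Both ΔIDR libraries were far above, and both F158E libraries below, all others, and EV and PR overlapped. CTSD was 1.23 ± 0.07 (adjusted p = 2.23e-27) higher on the log2 scale with ΔIDR than with F158E, 0.77 ± 0.07 against EV and 0.81 ± 0.07 against PR. F158E against EV was -0.46 ± 0.07 (adjusted p = 9.64e-07) and against PR -0.42 ± 0.07. The PR change of -0.04 ± 0.07 did not pass. More than any other cathepsin, CTSD shares exon sequence with other annotated genes (52.7% of its exon bases in GENCODE 29), and the library kit does not mark strand. Such overlap also covered 28.5% of the exon bases of CTSA, 23.4% of PPT1 and 21.2% of MAN2B1. Among the further genes valued below it covered 29.3% of M6PR, 22.9% of RRAGC and 22% of SQSTM1.

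CTSZ, a cysteine carboxypeptidase (chr20:58995185-59007247, minus strand), stood at 59.3 and 63.7 CPM with EV, 48 and 47.5 with PR, 45.7 and 56.9 with F158E, and 87.2 and 94.7 with ΔIDR. ΔIDR was above every other library and PR was below EV, while F158E ran from below PR to just under EV. It fell with PR (-0.36 ± 0.08, adjusted p = 7.16e-05) and was higher with ΔIDR than with EV (0.57 ± 0.08, adjusted p = 4.51e-09) and F158E (0.83 ± 0.08, adjusted p = 1.14e-15). Its F158E fall against EV (-0.26 ± 0.08, adjusted p = 0.0199) was lost without EV replicate 1 (0.0505), EV replicate 2 (0.273) or F158E replicate 1 (0.614), and with DESeq2 (0.0851). CTSH, an aminopeptidase of the same family (chr15:78921058-78949574, minus strand), went the other way. It stood at 101 and 97.2 CPM with EV, 85.2 and 80.6 with PR, 118 and 115 with F158E, and 59.6 and 63.2 with ΔIDR. F158E was highest and ΔIDR lowest, with EV and PR between them and no overlap of any 2 groups. CTSH fell with PR (-0.26 ± 0.06, adjusted p = 0.00022), was lower still with ΔIDR (-0.69 ± 0.06, adjusted p = 1.54e-15 against EV) and differed by -0.92 ± 0.06 (adjusted p = 1.13e-22) between ΔIDR and F158E. Its rise with F158E over EV (0.23 ± 0.06, adjusted p = 0.00607) was lost without EV replicate 2 (0.134) or F158E replicate 1 (0.0756).

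CTSA, the carboxypeptidase that protects the sialidase NEU1 and β-galactosidase, ran at 67.5 and 71.4 CPM with EV, 56.8 and 59.6 with PR, 56.2 and 55.4 with F158E, and 80.9 and 77.1 with ΔIDR. It was lower with PR than with EV (-0.25 ± 0.07, adjusted p = 0.00217), and higher with ΔIDR than with PR (0.44 ± 0.07, adjusted p = 1.6e-07) and F158E (0.50 ± 0.07, adjusted p = 1.43e-08). Its F158E value against EV (-0.32 ± 0.07, adjusted p = 0.00102) lost its call without EV replicate 2 (0.0603). CTSL, an endopeptidase, had few counts, at 16.3 and 18.3 CPM with EV, 14.1 and 13.2 with PR, 12.2 and 13.8 with F158E, and 21.6 and 17.1 with ΔIDR. The PR fall (-0.34 ± 0.15, adjusted p = 0.0473) was lost without EV replicate 1 (0.0535), EV replicate 2 (0.265), PR replicate 1 (0.0769) or PR replicate 2 (0.205), and with DESeq2 (0.0949) and with no filter on low counts (0.102). CTSL was higher with ΔIDR than with PR (0.50 ± 0.15, adjusted p = 0.00295), a call lost without ΔIDR replicate 1 (0.117). CTSS, the cathepsin of antigen presentation, stood at 47.2 and 56 CPM with EV, 54.6 and 54 with PR, 42.4 and 50.4 with F158E, and 56.7 and 57.4 with ΔIDR, with F158E replicate 1 the lowest library and EV replicate 1 next to it. Its F158E call against PR (-0.23 ± 0.08, adjusted p = 0.0224) was lost without F158E replicate 1 (0.446), PR replicate 1 (0.0953) or PR replicate 2 (0.0572), and with DESeq2 (0.0716). CTSB, another cysteine protease, ranged from 75 to 92.4 CPM, and its lower values with ΔIDR than with PR (-0.18 ± 0.06, adjusted p = 0.0165) were lost as a call without PR replicate 2 (0.36) or ΔIDR replicate 2 (0.265).

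**Figure D2:**
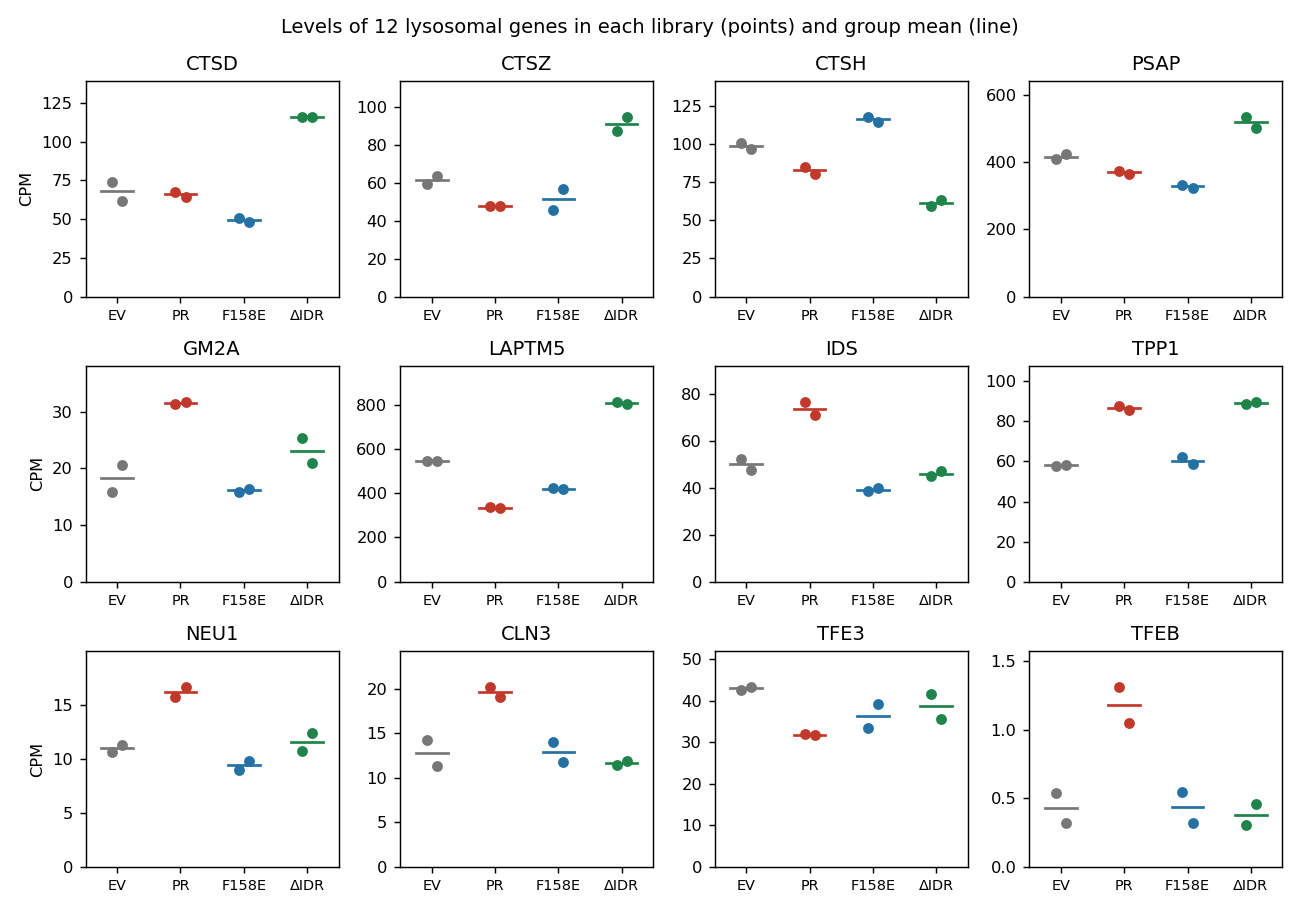
Level in CPM (vertical axes, each from 0) of 12 lysosomal genes in the 4 groups (horizontal axes): points are libraries, lines group means. CTSD, CTSZ, PSAP and LAPTM5 are highest with ΔIDR, GM2A, IDS, NEU1 and CLN3 are highest with PR, and CTSH is highest with F158E and lowest with ΔIDR.

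Glycosidases cut sugars from glycoproteins, glycolipids and glycosaminoglycans. With PR 1 of the 11 was higher and 3 were lower than with EV. The shares were 9.09% and 27.3%, against 24.2% and 24.4% of all tested genes. With ΔIDR 6 were higher and 1 was lower than with PR (24.9% of all tested genes each way). With ΔIDR against F158E 6 were higher and none was lower (9.17% and 9.37% of all tested genes). NEU1, the sialidase that CTSA protects, stood at 10.6 and 11.3 CPM with EV, 15.7 and 16.6 with PR, 8.95 and 9.82 with F158E, and 10.7 and 12.4 with ΔIDR. PR was the highest group in both libraries and F158E the lowest. NEU1 rose with PR (0.56 ± 0.16, adjusted p = 0.0026) and was lower with F158E (-0.79 ± 0.16, adjusted p = 2.96e-05) and ΔIDR (-0.48 ± 0.16, adjusted p = 0.00931) than with PR. The last of these was lost without PR replicate 2 (0.0722) or ΔIDR replicate 1 (0.118).

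IDUA, which cuts iduronic acid from heparan and dermatan sulfate, showed the largest fall with PR among called members of the list. It stood at 5.55 and 7.92 CPM with EV, 3.7 and 4.02 with PR, 6.8 and 5.16 with F158E, and 11.3 and 7.32 with ΔIDR. PR was lowest. EV overlapped both mutants, while both ΔIDR libraries lay above both F158E libraries. IDUA was -0.80 ± 0.25 (adjusted p = 0.0043) with PR against EV, a call lost without EV replicate 2 (0.16), and 1.26 ± 0.24 (adjusted p = 5.64e-06) with ΔIDR against PR. With F158E against PR it was 0.63 ± 0.24 (adjusted p = 0.0288), lost without F158E replicate 1 (0.273), PR replicate 1 (0.115) or PR replicate 2 (0.0522), and with DESeq2 (0.0804). FUCA1, a fucosidase, was counted by 3 to 33 reads a library and stood at 0.431 and 0.686 CPM with EV, 0.227 and 0.175 with PR, 0.548 and 0.685 with F158E, and 0.965 and 1.51 with ΔIDR. PR was lowest and ΔIDR highest. Its ΔIDR value against PR (2.59 ± 0.84, adjusted p = 0.00691) was lost without PR replicate 2 (0.0697) or ΔIDR replicate 2 (0.103). FUCA2, the secreted fucosidase, stood at 93.1 and 94.4 CPM with EV, 83.2 and 89.9 with PR, 78.5 and 75 with F158E, and 104 and 99.4 with ΔIDR. F158E was lowest and ΔIDR highest of all groups. FUCA2 was lower with F158E than with EV (-0.29 ± 0.06, adjusted p = 0.000441) and higher with ΔIDR than with PR (0.23 ± 0.06, adjusted p = 0.000936) and F158E (0.40 ± 0.06, adjusted p = 9.8e-08). Its F158E value against PR (-0.17 ± 0.06, adjusted p = 0.0183) was lost without F158E replicate 2 (0.163) or PR replicate 2 (0.26).

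GUSB, β-glucuronidase, stood at 80 and 77.5 CPM with EV, 71 and 62.9 with PR, 79.9 and 77 with F158E, and 85.8 and 93.8 with ΔIDR. PR was lowest and ΔIDR highest. It was higher with ΔIDR than with PR (0.43 ± 0.07, adjusted p = 7.71e-08), and its PR fall (-0.23 ± 0.07, adjusted p = 0.00275) was lost without PR replicate 2 (0.16). The genome holds near-identical copies of parts of GUSB, so its counts are uncertain. HEXA, the α subunit of β-hexosaminidase A, stood at 67.5 and 62.9 CPM with EV, 69.7 and 73.7 with PR, 52.5 and 62.6 with F158E, and 67.2 and 72.8 with ΔIDR. F158E replicate 1 was the lowest of all and F158E replicate 2 lay just under EV. HEXA was lower with F158E than with PR (-0.32 ± 0.07, adjusted p = 0.000227), lost without F158E replicate 1 (0.0726). GLB1, β-galactosidase, ranged from 73.9 to 96.1 CPM and GLA, α-galactosidase, from 71.6 to 89.6. GLB1 was -0.16 ± 0.06 with PR against EV (adjusted p = 0.0288), lost without EV replicate 2 (0.27), PR replicate 1 (0.151) or PR replicate 2 (0.0603), and with DESeq2 (0.0627). GLA was 0.23 ± 0.07 with ΔIDR against PR (adjusted p = 0.00186), lost without PR replicate 1 (0.0673). GAA, the acid glucosidase of glycogen, whose promoter stretch is shown above, stood at 13.2 to 19.8 CPM and was called in none of the 6 comparisons. MAN2B1, an α-mannosidase at 123 to 144 CPM, and NAGLU, an enzyme of heparan sulfate breakdown at 14.5 to 19.3 CPM, were not called in any either.

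Among lipid enzymes and lipid carriers, 3 of 7 rose and 1 fell with PR (24.2% and 24.4% of all tested genes). With ΔIDR 6 of 7 were higher than with F158E (9.17% of all tested genes). GM2A, the activator that presents ganglioside GM2 for cleavage, had the largest called rise of the list with PR and lies at chr5:151212150-151270440, plus strand. It stood at 15.9 and 20.6 CPM with EV, 31.3 and 31.7 with PR, 15.9 and 16.3 with F158E, and 25.3 and 20.9 with ΔIDR. Both PR libraries were above all others, and ΔIDR lay between PR and the rest with 1 library just above the higher EV value. GM2A rose with PR (0.79 ± 0.13, adjusted p = 1.22e-07) and was lower with F158E than with PR (-0.97 ± 0.13, adjusted p = 3.69e-10). It was higher with ΔIDR than with F158E (0.52 ± 0.13, adjusted p = 0.00142), lost without ΔIDR replicate 1 (0.0819). Against PR the ΔIDR value (-0.45 ± 0.12, adjusted p = 0.00143) was lost without ΔIDR replicate 2 (0.1).

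PSAP, the precursor of the saposins that help hydrolases reach sphingolipids, lies at chr10:71816298-71851375, minus strand, and was the second most abundant gene per length. It stood at 409 and 424 CPM with EV, 375 and 366 with PR, 332 and 324 with F158E, and 535 and 502 with ΔIDR. The 4 groups did not overlap and ran F158E, PR, EV, ΔIDR from low to high. PSAP fell with PR (-0.17 ± 0.03, adjusted p = 5.61e-06), lay lower still with F158E (-0.35 ± 0.03, adjusted p = 1.05e-14 against EV), and was higher with ΔIDR than with EV (0.31 ± 0.03, adjusted p = 1.75e-13) and F158E (0.66 ± 0.03, adjusted p = 1.52e-31). ASAH1, acid ceramidase, stood at 44.3 and 40.8 CPM with EV, 51.2 and 50.7 with PR, 37.1 and 38.5 with F158E, and 51.6 and 45.1 with ΔIDR. F158E was lowest in both libraries. LIPA, the acid lipase of cholesteryl esters and triglycerides, stood at 58.6 and 56.2 CPM with EV, 69.3 and 66.8 with PR, 48.9 and 51.4 with F158E, and 61 and 67.2 with ΔIDR, again with F158E lowest. ASAH1 (-0.43 ± 0.09, adjusted p = 2.84e-05) and LIPA (-0.44 ± 0.08, adjusted p = 6.86e-07) were lower with F158E than with PR. The PR rise of ASAH1 (0.26 ± 0.09, adjusted p = 0.0108) was lost without EV replicate 2 (0.151) or PR replicate 1 (0.0587), and that of LIPA (0.25 ± 0.08, adjusted p = 0.00464) was lost without EV replicate 2 (0.0666) or PR replicate 1 (0.0581). LIPA was higher with ΔIDR than with F158E (0.36 ± 0.08, adjusted p = 0.00012).

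NPC2, the luminal carrier of cholesterol, stood at 9.71 and 13.6 CPM with EV, 9.89 and 9.21 with PR, 12 and 9.6 with F158E, and 14.5 and 15.7 with ΔIDR, with both ΔIDR libraries highest. It was higher with ΔIDR than with PR (0.66 ± 0.17, adjusted p = 0.00068). PPT1, the thioesterase that removes palmitate from proteins, was nearly level at 239 and 244 CPM with EV, 226 and 246 with PR, 231 and 232 with F158E, and 263 and 245 with ΔIDR. The EV, PR and F158E libraries of PPT1 lay within 226 to 246 CPM, and its value with ΔIDR against F158E (0.13 ± 0.04, adjusted p = 0.00906) was lost without ΔIDR replicate 1 (0.257). SMPD1, acid sphingomyelinase, stood at 3.67 to 6.51 CPM and was not called in any comparison.

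Of the 5 sulfatases and phosphatases tested, 3 fell and 1, IDS, rose with PR (24.4% and 24.2% of all tested genes). Among the 3, the GALNS fall was lost in several alternatives, as given below. IDS, the iduronate sulfatase, stood at 52.2 and 47.8 CPM with EV, 76.6 and 70.9 with PR, 38.5 and 39.8 with F158E, and 45.2 and 47 with ΔIDR. PR lay far above the rest in both libraries and F158E was lowest. IDS rose with PR (0.56 ± 0.08, adjusted p = 4.31e-09) and was lower with F158E (-0.91 ± 0.08, adjusted p = 5.42e-17) and ΔIDR (-0.68 ± 0.08, adjusted p = 1e-11) than with PR. Against EV, F158E stood at -0.35 ± 0.08 (adjusted p = 0.00169), lost without EV replicate 1 (0.112). A near-identical partial copy lies near IDS, so its counts are uncertain. ARSB, the sulfatase of dermatan and chondroitin sulfate, stood at 110 and 111 CPM with EV, 81.4 and 91 with PR, 96.7 and 102 with F158E, and 117 and 115 with ΔIDR, with PR lowest and ΔIDR highest. ARSB fell with PR (-0.36 ± 0.06, adjusted p = 1.69e-07) and was higher with ΔIDR than with PR (0.43 ± 0.06, adjusted p = 1.24e-09). Its F158E value against PR (0.20 ± 0.06, adjusted p = 0.00287) was lost without F158E replicate 2 (0.0537) or PR replicate 1 (0.168).

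ACP2, a lysosomal acid phosphatase, stood at 37.9 and 32.9 CPM with EV, 23.8 and 24.6 with PR, 29.2 and 31.2 with F158E, and 32.4 and 31.8 with ΔIDR. EV was highest and PR lowest, and the F158E and ΔIDR libraries were close together between them. ACP2 fell with PR (-0.55 ± 0.11, adjusted p = 1.04e-05) and was higher with ΔIDR than with PR (0.41 ± 0.11, adjusted p = 0.00103). Its F158E value against PR (0.32 ± 0.11, adjusted p = 0.0114) was lost without F158E replicate 2 (0.0956) or PR replicate 1 (0.073). GALNS, the sulfatase of keratan sulfate, stood at 17.8 and 19.7 CPM with EV, 15 and 14.4 with PR, 17.3 and 15.2 with F158E, and 19.9 and 21.6 with ΔIDR, with PR lowest and ΔIDR highest. It was higher with ΔIDR than with PR (0.50 ± 0.14, adjusted p = 0.00151), and its PR fall (-0.35 ± 0.14, adjusted p = 0.0306) was lost without EV replicate 2 (0.202), PR replicate 1 (0.0728) or PR replicate 2 (0.144), and with DESeq2 (0.0539) and with no filter on low counts (0.0715). ARSA, the cerebroside sulfatase, stood at 5.16 to 7.71 CPM and was called nowhere.

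TPP1 and GRN, the other luminal proteins, both rose with PR and parted with ΔIDR. TPP1, a tripeptidyl peptidase, stood at 57.7 and 58.3 CPM with EV, 87.4 and 85.6 with PR, 62 and 58.7 with F158E, and 88.8 and 89.6 with ΔIDR. PR and ΔIDR were high, and EV and F158E low, with no overlap between the pairs of groups. TPP1 rose with PR (0.58 ± 0.07, adjusted p = 8.95e-12) and lay above EV with ΔIDR too (0.62 ± 0.07, adjusted p = 3.52e-12). The difference between ΔIDR and PR was 0.04 ± 0.07 (adjusted p = 0.612), and that between F158E and PR was -0.52 ± 0.07 (adjusted p = 2.34e-10). GRN, the granulin precursor, stood at 85.7 and 76.6 CPM with EV, 92.6 and 94.5 with PR, 71.5 and 69.6 with F158E, and 68 and 64.1 with ΔIDR. PR was highest and ΔIDR lowest. GRN was lower than with PR in both F158E (-0.41 ± 0.07, adjusted p = 1.71e-07) and ΔIDR (-0.50 ± 0.07, adjusted p = 4.53e-10). Its PR rise (0.20 ± 0.07, adjusted p = 0.00679) was lost without EV replicate 2 (0.244).

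**Figure D3:**
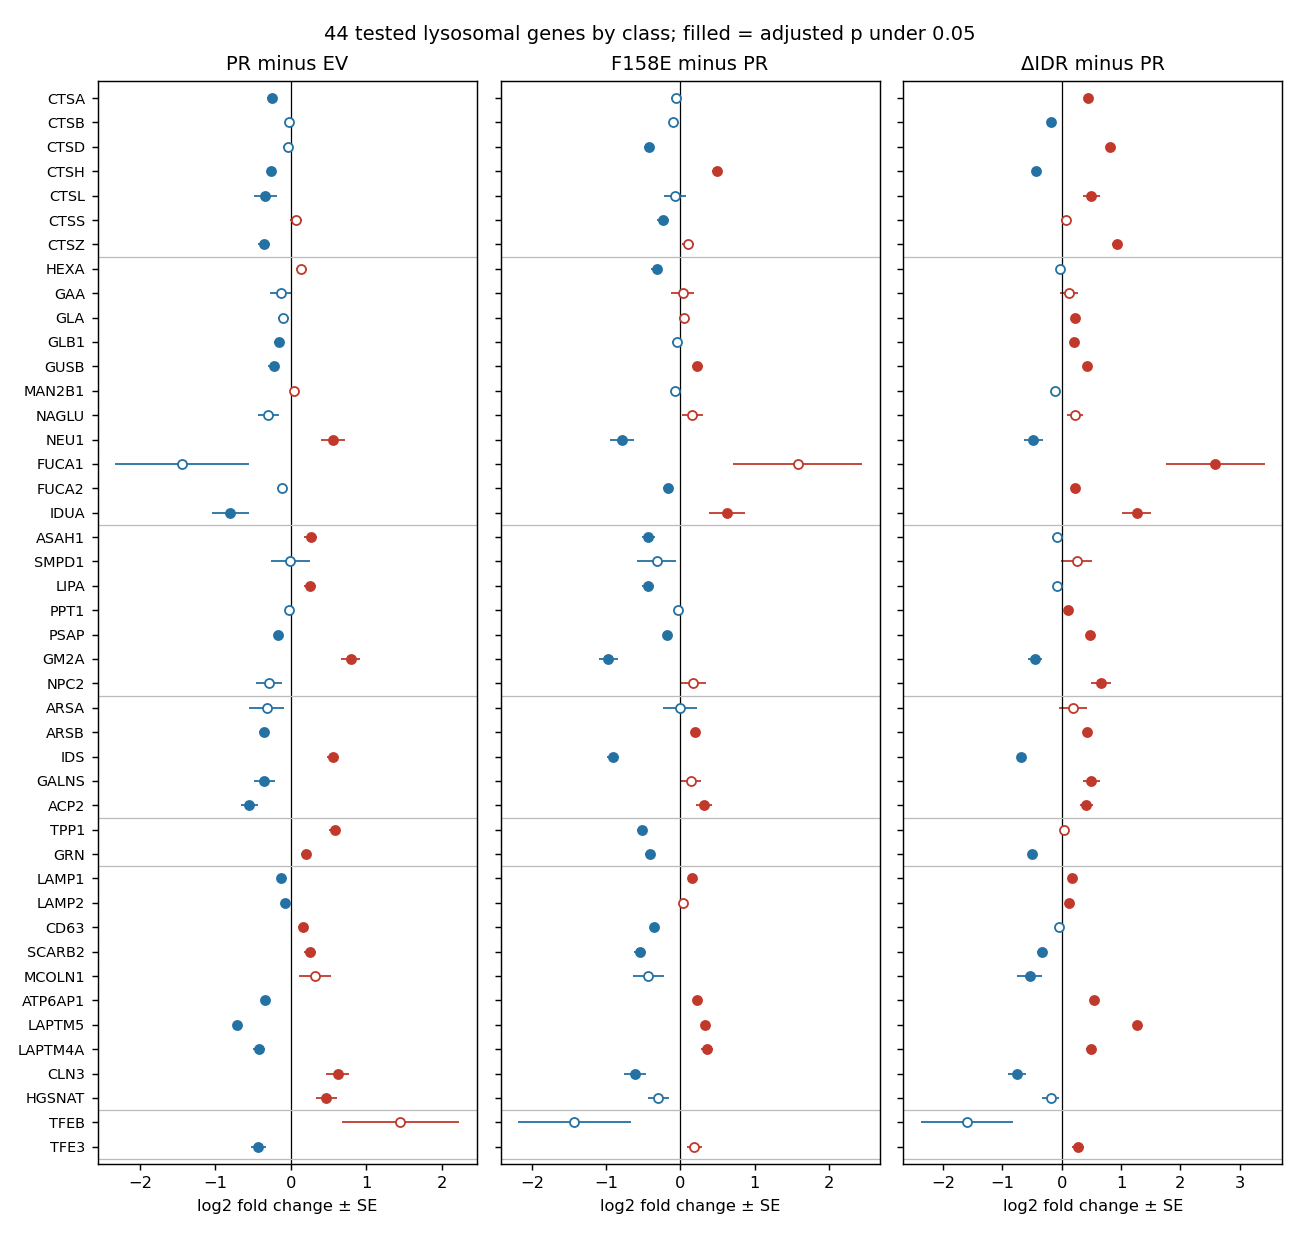
Log2 fold changes ± SE (horizontal axes) of the 44 tested lysosomal genes, in rows by class (vertical axis), for PR minus EV, F158E minus PR and ΔIDR minus PR; red is higher, blue lower, filled circles have an adjusted p under 0.05. LAPTM5 lies at -0.71 in PR minus EV and at 1.27 in ΔIDR minus PR, and GM2A at 0.79 and -0.45.

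Of the 10 membrane proteins, 4 rose and 5 fell with PR (24.2% and 24.4% of all tested genes), and they parted by gene. LAPTM5, a protein of blood cells that sends receptors to the lysosome for degradation (chr1:30732469-30757820, minus strand), stood at 548 and 547 CPM with EV, 338 and 333 with PR, 423 and 419 with F158E, and 813 and 804 with ΔIDR. The groups ran PR, F158E, EV, ΔIDR from low to high with replicates almost equal and no overlap. LAPTM5 fell with PR (-0.71 ± 0.03, adjusted p = 1.45e-37) and lay lower than EV with F158E too (-0.38 ± 0.03, adjusted p = 9.11e-20). With ΔIDR it was higher than with EV (0.56 ± 0.03, adjusted p = 6.46e-31), PR (1.27 ± 0.03, adjusted p = 1.75e-56) and F158E (0.94 ± 0.03, adjusted p = 6.95e-47). Its relative LAPTM4A stood at 67.7 and 65.7 CPM with EV, 53.3 and 46.4 with PR, 65.6 and 62.3 with F158E, and 71.6 and 69.1 with ΔIDR, with PR lowest. LAPTM4A fell with PR (-0.42 ± 0.08, adjusted p = 2.01e-06), and both F158E (0.36 ± 0.08, adjusted p = 4.12e-05) and ΔIDR (0.49 ± 0.08, adjusted p = 3.03e-08) were above PR. Against EV the mutants differed by -0.06 and 0.08 and did not pass.

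LAMP1, a glycoprotein that lines the membrane, stood at 380 and 375 CPM with EV, 341 and 349 with PR, 387 and 382 with F158E, and 395 and 388 with ΔIDR. LAMP2, the receptor of chaperone-mediated autophagy, stood at 297 and 288 CPM with EV, 275 and 277 with PR, 282 and 286 with F158E, and 300 and 298 with ΔIDR. PR was the lowest group for both genes by a small margin. LAMP1 fell with PR (-0.13 ± 0.03, adjusted p = 0.000416) and was higher with F158E (0.16 ± 0.03, adjusted p = 2.54e-05) and ΔIDR (0.18 ± 0.03, adjusted p = 9.7e-07). LAMP2 was higher with ΔIDR than with PR (0.12 ± 0.04, adjusted p = 0.00351), while its PR fall (-0.08 ± 0.04, adjusted p = 0.0467) was lost without EV replicate 1 (0.287), F158E replicate 1 (0.0611), PR replicate 1 (0.151), PR replicate 2 (0.135) or ΔIDR replicate 2 (0.056), and with DESeq2 (0.0581) and with no filter on low counts (0.0899). ATP6AP1, an accessory subunit of the proton pump, ranged from 94.5 to 141 CPM with PR lowest and ΔIDR highest. It fell with PR (-0.34 ± 0.05, adjusted p = 9.9e-08) and was higher with ΔIDR than with F158E (0.30 ± 0.05, adjusted p = 3.27e-06).

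CLN3, the protein mutated in juvenile neuronal ceroid lipofuscinosis, stood at 14.3 and 11.3 CPM with EV, 20.2 and 19.1 with PR, 14 and 11.8 with F158E, and 11.5 and 11.9 with ΔIDR. Both PR libraries were high and the other 3 groups overlapped. CLN3 rose with PR (0.62 ± 0.15, adjusted p = 0.00037) and was lower with F158E (-0.61 ± 0.15, adjusted p = 0.000445) and ΔIDR (-0.75 ± 0.15, adjusted p = 1.73e-05). Overlap with other genes covers 30.9% of its exon bases. SCARB2, a receptor that carries a hydrolase to the lysosome, stood at 51.9 and 49.8 CPM with EV, 60 and 61.2 with PR, 38.4 and 45 with F158E, and 48.7 and 47.4 with ΔIDR, with PR highest and F158E lowest. It was lower with F158E (-0.54 ± 0.08, adjusted p = 4.91e-08) and ΔIDR (-0.34 ± 0.08, adjusted p = 0.000383) than with PR, and its PR rise (0.25 ± 0.08, adjusted p = 0.00805) was lost without EV replicate 2 (0.0867) or PR replicate 2 (0.0509). HGSNAT, the acetyltransferase of heparan sulfate breakdown, stood at 13.6 and 16 CPM with EV, 21.4 and 19.7 with PR, 16.7 and 16.8 with F158E, and 16.5 and 19.5 with ΔIDR, and its PR rise (0.47 ± 0.14, adjusted p = 0.0032) was lost without EV replicate 1 (0.0882). CD63, a tetraspanin of late endosomes, was lower with F158E (-0.35 ± 0.06, adjusted p = 3.55e-06) than with PR, at 67.3 to 88.9 CPM over the libraries. Its PR rise (0.16 ± 0.07, adjusted p = 0.0373) was lost without EV replicate 1 (0.113), EV replicate 2 (0.146) or PR replicate 2 (0.264), and with DESeq2 (0.061) and with no filter on low counts (0.0641). MCOLN1, the calcium channel TRPML1, whose promoter stretch is shown above, stood at 7.66 and 8.02 CPM with EV, 9.5 and 10.1 with PR, 8.81 and 5.71 with F158E, and 8.26 and 5.4 with ΔIDR. Its ΔIDR value against PR (-0.54 ± 0.21, adjusted p = 0.0266) was lost without PR replicate 2 (0.109) or ΔIDR replicate 2 (0.464), and with DESeq2 (0.0875).

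TFEB and TFE3, the transcription factors of the pathway, stood at 0.107 and 8.73 CPM per kilobase. TFE3 stood at 42.6 and 43.2 CPM with EV, 31.9 and 31.7 with PR, 33.4 and 39.1 with F158E, and 41.6 and 35.6 with ΔIDR. EV was highest and PR lowest in both libraries. TFE3 fell with PR (-0.43 ± 0.10, adjusted p = 0.000136). With ΔIDR against PR it was 0.27 ± 0.10 (adjusted p = 0.0168), lost without PR replicate 2 (0.0626) or ΔIDR replicate 1 (0.255), and with F158E against PR it was 0.19 ± 0.10 (adjusted p = 0.116). TFEB was counted by only 5 to 23 reads a library and stood at 0.539 and 0.317 CPM with EV, 1.31 and 1.05 with PR, 0.548 and 0.32 with F158E, and 0.302 and 0.458 with ΔIDR. Both PR libraries were above all others. No TFEB difference passed the test: PR against EV was 1.45 ± 0.78 (adjusted p = 0.119), F158E against PR -1.43 ± 0.76 (adjusted p = 0.125) and ΔIDR against PR -1.60 ± 0.78 (adjusted p = 0.0831). As a description over the 4 group means of log2 CPM, the genes of the list whose levels ran most like TFEB were CLN3 (Pearson r = 0.995), MCOLN1 (0.944), IDS (0.912), NEU1 (0.892) and GRN (0.865). Values as far in the opposite direction were found for LAPTM4A (-0.985) and LAMP1 (-0.980), and TFE3 stood at -0.817. These values rest on 4 means of a gene with few reads and no called difference.

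**Figure D4:**
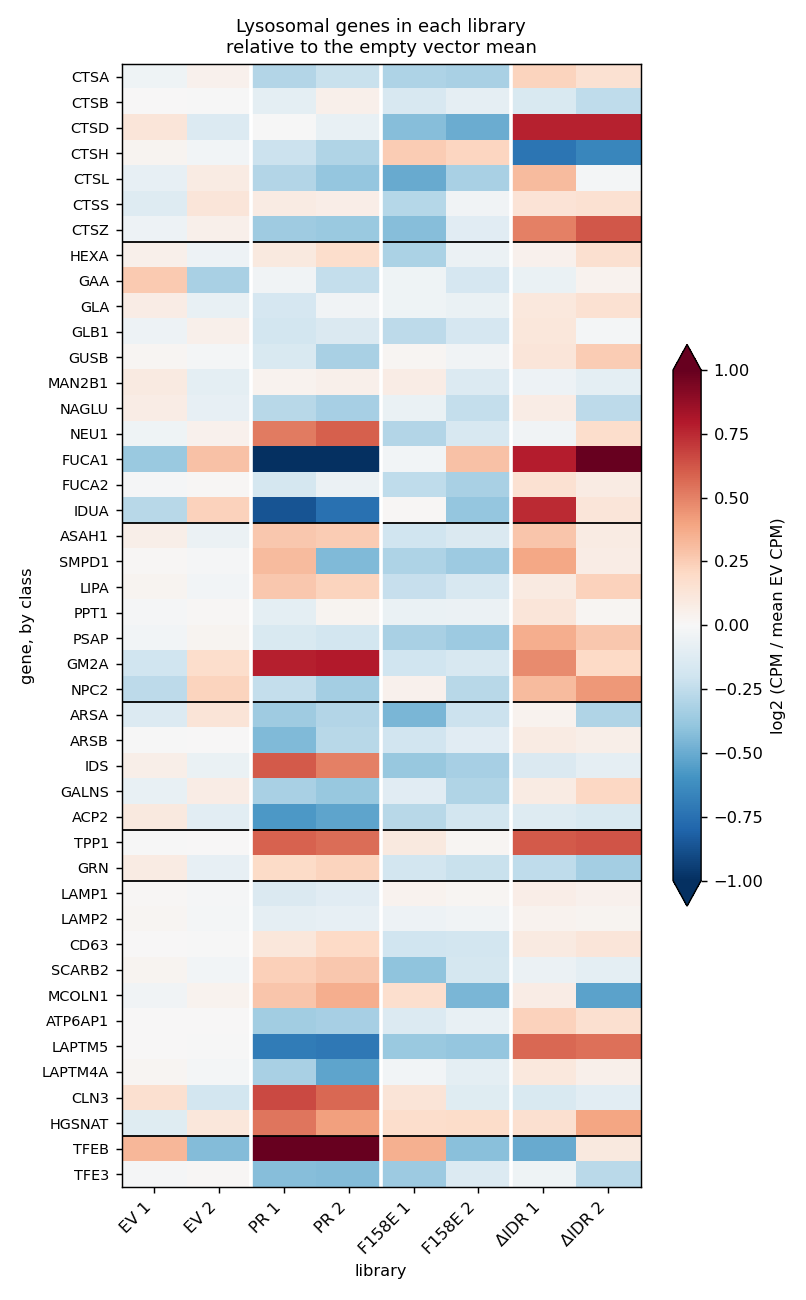
Log2 ratio of CPM to the EV mean (colour, from -1 to 1) for the 44 tested lysosomal genes (vertical axis, by class) in the 8 libraries (horizontal axis). The PR columns hold both dark blue (LAPTM5, IDUA, ACP2) and dark red genes (GM2A, IDS, TPP1), and the ΔIDR columns are mostly red, with CTSH and GRN among the blue genes. FUCA1 (-1.44) and TFEB (1.45) had the most extreme log2 fold changes of PR against EV, but rest on few reads and were not called.

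Counted by library, both PR libraries were above all 6 others in 9 of the 44 genes and below them in 13, where 25.6% and 24.9% of all tested genes did so. Both F158E libraries were lowest in 11 (4.59% of all genes) and highest in 1, CTSH (4.56%). Both ΔIDR libraries were highest in 18 (10% of all genes) and lowest in 2, CTSH and GRN (9.33%). Both EV libraries were highest in 2, ACP2 and TFE3 (6.22% of all genes), and lowest in 2, TPP1 and HGSNAT (5.26%). The ΔIDR set held CTSA, CTSD, CTSS and CTSZ among the cathepsins and LAMP1, LAMP2, ATP6AP1, LAPTM5 and LAPTM4A among the membrane proteins. The F158E set held CTSA and CTSD, NEU1, HEXA, FUCA2, ASAH1, LIPA, PSAP, IDS, CD63 and SCARB2. These counts follow from the same libraries as the tests above and are no further evidence.

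Of the 11 genes whose windows hold CACGTG, 10 were tested. With PR against EV 3 rose (NEU1, CD63 and CLN3), 4 fell (CTSA, ARSB, GALNS and LAMP1) and 3 did not pass (CTSD, GAA and MCOLN1), where 24.2% of all tested genes were higher and 24.4% lower. With ΔIDR against PR 5 were higher and 3 lower (24.9% of all tested genes each way). Among the 3 genes with the 10-base palindrome, GALNS fell with PR, while GAA and MCOLN1 were not called. The PR calls of CD63 and GALNS against EV were lost in some alternatives, as given above. So were the ΔIDR calls of NEU1 and MCOLN1 against PR.

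Further genes of the pathway were taken from 7 lists that were written with earlier results of these data known. Of their 116 genes 107 were tested, and with PR 27 were higher and 33 lower than with EV (25.2% and 30.8%, against 24.2% and 24.4% of all tested genes). With ΔIDR against F158E 29 were higher and 5 lower (27.1% and 4.67%, against 9.17% and 9.37% of all genes). The 29 became 18 without F158E replicate 2, and the 5 became 2 without F158E replicate 1 and 3 with DESeq2 or in a fit of those 2 groups alone. With F158E against EV 1 was higher and 14 lower (0.935% and 13.1%, against 3.98% and 4.67% of all genes). With ΔIDR against EV 13 were higher and 6 lower (12.1% and 5.61%, against 5.06% and 5.23% of all genes). For F158E against EV, the 1 became 0 without EV replicate 1 and 2 without any 1 of the PR or ΔIDR libraries. The 14 became 6 without EV replicate 1 or EV replicate 2 and 9 without F158E replicate 1. For ΔIDR against EV, the 6 became 1 without EV replicate 1, 2 without EV replicate 2 and 3 without ΔIDR replicate 2, and the 13 became 5 without EV replicate 2. The alternatives for these lists were chosen after seeing the data.

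Of 13 receptors and enzymes of delivery 5 rose and 3 fell with PR (38.5% and 23.1%, against 24.2% and 24.4% of all tested genes, the background for each list below). M6PR, the cation-dependent mannose 6-phosphate receptor, stood at 265 and 259 CPM with EV, 179 and 173 with PR, 219 and 218 with F158E, and 315 and 312 with ΔIDR. The order from low to high, PR, F158E, EV, ΔIDR, was that of LAPTM5. It fell with PR (-0.58 ± 0.04, adjusted p = 3.66e-23) and was higher with ΔIDR than with F158E (0.52 ± 0.04, adjusted p = 5.28e-21). IGF2R, the other receptor, rose with PR (0.13 ± 0.04, adjusted p = 0.00144), from 288 and 292 CPM to 316 and 318. GNPTAB, which makes the mannose 6-phosphate tag, rose with PR (0.52 ± 0.08, adjusted p = 2.09e-08), and NAGPA, which uncovers it, fell (-0.93 ± 0.13, adjusted p = 1.09e-09). SUMF1, which activates all sulfatases, fell with PR (-0.95 ± 0.18, adjusted p = 3.95e-06). VPS35, a retromer subunit that returns receptors to the Golgi, rose (0.58 ± 0.05, adjusted p = 6.33e-20).

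Of the 16 tested subunits of the proton pump 4 were higher and 5 lower with PR (25% and 31.2%). The membrane subunit ATP6V0A1 rose (0.98 ± 0.10, adjusted p = 3.46e-15), from 30.9 and 33.8 CPM to 61.2 and 66.4, while its paralog TCIRG1 fell (-0.98 ± 0.06, adjusted p = 2.91e-27), from 153 and 150 to 83.1 and 70.7. PR and EV did not overlap in either gene, while for ATP6V0A1 EV, F158E and ΔIDR overlapped. Both mutants were lower than PR for ATP6V0A1 (F158E -0.95, ΔIDR -0.87) and higher for TCIRG1 (0.55 and 1.15). ATP6V1A, the catalytic subunit, rose with PR (0.56 ± 0.07, adjusted p = 1.85e-11) and ATP6V0B, of the proton-conducting ring, fell (-0.67 ± 0.04, adjusted p = 2.45e-25).

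Of 20 further hydrolases tested, 5 rose and 5 fell with PR (25% each way). CTSC, the dipeptidyl peptidase that activates granule proteases, stood at 746 and 755 CPM with EV, 663 and 662 with PR, 701 and 717 with F158E, and 851 and 830 with ΔIDR. PR was lowest and ΔIDR highest, as for M6PR. CTSC fell with PR (-0.18 ± 0.03, adjusted p = 2.75e-09) and was higher with ΔIDR than with EV (0.16 ± 0.03, adjusted p = 3.57e-07). NAAA, an amidase of fatty acid ethanolamides, rose with PR (1.00 ± 0.18, adjusted p = 1.15e-06), as did PCYOX1, which degrades prenylcysteine (0.87 ± 0.09, adjusted p = 9.42e-15), and SCPEP1, a serine carboxypeptidase, fell (-0.41 ± 0.07, adjusted p = 1.67e-07).

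Among further membrane proteins 2 of 16 rose and 6 fell with PR (12.5% and 37.5%). SLC36A1, a lysosomal amino acid exporter, fell the most of those named (-1.22 ± 0.12, adjusted p = 1e-15), from 35.6 and 33.1 CPM to 14.1 and 15.5. OSTM1, partner of the chloride exchanger CLCN7, fell too (-0.76 ± 0.09, adjusted p = 1.9e-12), as did NPC1, the cholesterol exporter that works with NPC2 (-0.54 ± 0.10, adjusted p = 1.98e-06). SLC17A5, the sialic acid exporter, rose (0.85 ± 0.19, adjusted p = 0.00013). TPCN1, an ion channel, was 0.15 ± 0.06 (adjusted p = 0.0416), lost without EV replicate 2 (0.46), PR replicate 1 (0.108) or PR replicate 2 (0.141), and with DESeq2 (0.0777) and with no filter on low counts (0.0673).

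In the list of mTORC1 and of TFEB relatives, 6 of 17 rose and 3 fell with PR (35.3% and 17.6%). FNIP1, partner of folliculin in the control of TFEB and TFE3, stood at 65.6 and 66.1 CPM with EV, 21.2 and 21.7 with PR, 51.7 and 53.7 with F158E, and 54.6 and 60.8 with ΔIDR. Both PR libraries were far below all others. It fell with PR (-1.62 ± 0.09, adjusted p = 1.9e-28) and was higher in F158E (1.30 ± 0.09, adjusted p = 2.17e-22) and ΔIDR (1.43 ± 0.09, adjusted p = 4.61e-25) than with PR. RRAGD, a Rag GTPase that recruits TFEB and TFE3, rose with PR (0.71 ± 0.21, adjusted p = 0.0031), and RPTOR, the mTORC1 scaffold, fell (-0.31 ± 0.06, adjusted p = 2.61e-06). RRAGC (0.51 ± 0.17, adjusted p = 0.00959) lost its call without EV replicate 1 (0.226), and LAMTOR1 (0.23 ± 0.07, adjusted p = 0.00439) lost its call without EV replicate 2 (0.0826). TFEC, a TFEB relative of myeloid cells, was scarce, at 1.4 and 0.95 CPM with EV, 0.227 and 0.0583 with PR, 0.32 and 0.32 with F158E, and 5.79 and 3.71 with ΔIDR. It was above EV in both ΔIDR libraries and below EV in all PR and F158E libraries. TFEC fell with PR (-2.98 ± 0.71, adjusted p = 0.000268) and was 3.86 ± 0.56 (adjusted p = 2.86e-08) with ΔIDR against F158E. PR replicate 2 lay under the limit that a count of 0 allows, so the fitted size of the fall is uncertain. MITF, the remaining relative, was lower with ΔIDR than with PR (-1.62 ± 0.31, adjusted p = 5.56e-06), and its PR value (0.68 ± 0.29, adjusted p = 0.0447) was lost without EV replicate 1 (0.149), EV replicate 2 (0.119) or PR replicate 1 (0.551), and with DESeq2 (0.0994) and with no filter on low counts (0.0796) and with the replicate block (0.0564).

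Of 21 autophagy genes 3 rose and 10 fell with PR (14.3% and 47.6%, against 24.2% and 24.4% of all genes). SQSTM1, the autophagy receptor p62, stood at 153 and 137 CPM with EV, 78.9 and 65.4 with PR, 102 and 103 with F158E, and 167 and 182 with ΔIDR. The groups ran PR, F158E, EV, ΔIDR. It fell with PR (-1.01 ± 0.06, adjusted p = 1.03e-26) and was higher with ΔIDR than with F158E (0.77 ± 0.06, adjusted p = 7.79e-21). ULK1, the kinase that starts autophagy, fell with PR (-0.75 ± 0.12, adjusted p = 8.61e-08). GABARAPL1, of the family that coats autophagosomes, rose (0.72 ± 0.17, adjusted p = 0.000231), as did the receptor TAX1BP1 (0.17 ± 0.04, adjusted p = 0.000547). Of the 4 tested cystatins, which inhibit cathepsins, 2 were called higher and 1 lower with PR. CST7, called higher, had the largest change of this list (log2 fold change 1.46). The calls of CSTA and CSTB were lost with DESeq2 (adjusted p = 0.0735 and 0.0677) and with no filter on low counts (0.0501 and 0.0544). The values of CSTA (0.41 ± 0.16, adjusted p = 0.026) and CSTB (-0.20 ± 0.08, adjusted p = 0.0351) were both lost on leaving out 1 library, CSTA without EV replicate 1 (0.0602), EV replicate 2 (0.148) or PR replicate 1 (0.298) and CSTB without EV replicate 1 (0.209), PR replicate 1 (0.195) or PR replicate 2 (0.0593).

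Markers of monocytes and macrophages, cells rich in lysosomes, moved with several of these results. Summed over 13 genes they stood at 111 and 102 CPM with EV, 58.9 and 55.9 with PR, 74.4 and 74.6 with F158E, and 96.4 and 100 with ΔIDR. The order of groups PR, F158E, then EV or ΔIDR resembles that of LAPTM5 and M6PR, except that both of these genes were higher in ΔIDR than in EV. Among them LYZ stood at 32.9 to 49.3 CPM and CSF1R at 4.72 to 13.2, while CD14 did not exceed 1.43, CD163 0.543 and C1QA 0.228 CPM and C1QB was at 0. Of the 6 of these markers that were tested, 5 fell with PR (24.4% of all tested genes). Promyelocyte markers were also summed over 8 genes, and MPO formed most of each sum. They stood at 4364 and 4287 CPM with EV, 3813 and 3798 with PR, 4575 and 4447 with F158E, and 4780 and 4862 with ΔIDR. Of the 7 tested, 6 fell and 0 rose with PR against EV (24.4% and 24.2% of all tested genes). Single markers parted with the mutants. Against EV, 1 was higher and 2 lower with F158E (3.98% and 4.67%), and 4 were higher and 1 lower with ΔIDR (5.06% and 5.23%). The part of these markers, and of the level of the introduced transcript, in the lysosomal results was not tested. Lymphoid markers summed to 26.3 to 47.9 CPM, mostly NKG7, erythroid markers to at most 0.275, osteoclast markers to at most 1.95, and epithelial and fibroblast markers to 6.9 to 19.7 CPM.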

How the data were processed

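The authors deposited raw counts of reads per gene for 8 libraries of ribosomal RNA-depleted total RNA, made with a NEBNext Ultra kit per the labels' protocols. Per the submitters' processing notes the builds were GRCh38 and hg38, while the aligner, the counter and the annotation are not given in the sources used here. Lines that name no gene were left out. Of all reads listed, 87.9 to 88.7% were assigned to a gene, 3.37 to 3.47% were ambiguous and 4.18 to 4.61% aligned to more than 1 place. A reference list of gene names matched 56321 of 60483 identifiers, and 56753 were found in GENCODE 29.

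Counts of all 8 libraries were fitted together with edgeR 4.0.16 (R 4.3.3): filterByExpr left 13982 genes, TMM factors ran from 0.989 to 1.01, and the quasi-likelihood test was applied to each of 6 comparisons with Benjamini-Hochberg adjustment over all tested genes. The SE is the size of the log2 fold change divided by the square root of its F value. The script was tested on simulated data. Replicates differed beyond sampling noise (chi-square per degree of freedom 2.94 to 3.57), so none was counted as a duplicate. Same-numbered libraries did not deviate together (r from -0.0163 to 0.0206), so the main model has no replicate block.

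The members and lists were chosen with earlier results of these data known. All values per library were given for TFEB, TFE3 and, in each class, the 3 called genes with the largest changes in each of PR against EV, F158E against PR and ΔIDR against PR. They were also given for the 5 largest changes between ΔIDR and F158E, for genes called in opposite directions against EV, and for the 5 highest genes per kilobase. Of each further list up to 2 called genes per direction were named, besides 9 chosen by role. Some of these genes and 1 marker are not reported here. The alternatives were DESeq2 1.42.0, RLE factors, no filter, a stricter filter (1 CPM in 4 libraries), a fit of the 2 groups alone, a replicate block, and each library left out in turn.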

Additional observations from a re-analysis of the deposited data

Results flagged for a closer look

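For 6 genes of the list the mutants were called on opposite sides of EV or of PR. The difference between ΔIDR and F158E was also tested with edgeR's quasi-likelihood test (adjusted over all tested genes). The 6 were picked by calls from the same fit, so a difference between the mutants was largely fixed by that choice. Its p-values are therefore no further evidence. CTSD differed by 1.23 ± 0.07 (adjusted p = 2.23e-27) on the log2 scale, LAPTM5 by 0.94 ± 0.03 (adjusted p = 6.95e-47), CTSZ by 0.83 ± 0.08 (adjusted p = 1.14e-15) and PSAP by 0.66 ± 0.03 (adjusted p = 1.52e-31), each higher in both ΔIDR libraries than in both F158E libraries. FUCA2 differed by 0.40 ± 0.06 (adjusted p = 9.8e-08) in the same direction. CTSH differed by -0.92 ± 0.06 (adjusted p = 1.13e-22) and was lower in both ΔIDR libraries. All 6 differences were kept in each of the 14 alternatives, but the side of EV that F158E took rested on single libraries for CTSZ and CTSH, as given with their values above. FUCA2 is among the 6 through its place on either side of PR, and its F158E call against PR was lost without F158E replicate 2 (0.163) or PR replicate 2 (0.26). RARA reads were 1358 CPM on average with ΔIDR and 32.3 with F158E, and the part of that difference in these 6 results was not tested.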

How the results depend on the processing

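Of 129 called differences of single genes of the list, 76 were kept in all 14 alternatives, 53 were lost in at least 1, and 0 changed sign. Leaving out 1 library moved the genes higher with PR than with EV over 6 to 11, those higher with F158E than with EV over 0 to 1 and those lower over 6 to 11. Those lower with ΔIDR than with EV ran over 1 to 3, and those higher with ΔIDR than with F158E over 15 to 24. DESeq2 called 7 genes lower with F158E than with EV, where edgeR called 11. The cause was not tested. In these fits the lone library of a group is assumed to vary like the other groups.

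Libraries with the same replicate number were not paired, and the replicate block left on their side of the threshold all 133 single-gene results of the list that were rerun, which are the 129 called ones and 4 of TFEB and TFE3 that were not called, with 11 higher and 17 lower genes in PR against EV. For the genes of the further lists named by rule, 133 differences were called and 94 were kept in all alternatives. MITF lost its calls in PR against EV (0.0564) and in ΔIDR against F158E (0.0527) with the replicate block. TFEB and FUCA1 rest on few reads, with at most 23 and 33 counts in a library.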

Other observations

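LAPTM5 held 14.4% of the summed CPM of the 46 genes with EV, 9.68% with PR, 12.4% with F158E and 18.6% with ΔIDR. PSAP held 10.9, 10.7, 9.62 and 11.9% in the same order of groups. By class, the lipid enzymes and carriers summed to 957 and 900 CPM with ΔIDR and to 681 and 675 with F158E, while the pair of TPP1 and GRN was highest with PR (180 and 180 CPM). DNASE2, which digests DNA in lysosomes, was chosen after its values were seen: it stood at 3.72 and 3.59 CPM with EV, 9.32 and 8.81 with PR, 3.88 and 3.84 with F158E, and 2.11 and 1.42 with ΔIDR.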
